A study of Homo sapiens with 9 samples.

Results

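The 8 genes described here are AHR (the aryl hydrocarbon receptor), ARNT, AHRR, TIPARP, CYP1A1, CYP1B1, ALDH3A1 and KYNU, taken by symbol from a count table of 23710 gene rows. All 8 were found, and all 8 passed the filter on low counts that left 12546 genes for testing. They were chosen with measured values known: CYP1A1 and CYP1B1 for their lower levels with both UGDH hairpins, KYNU for its lower level with shUGDH-1, and the others as the receptor, its partner, its repressors and further target genes. Their differences from shNT are therefore given as descriptions with no p-value. Where such a difference is said to pass or not to pass the threshold, that is also a description and not a test.

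RNA was sequenced from MDA-MB-231, a human breast cancer cell line that lacks the hormone receptors, after lentiviral transduction with a pGIPZ vector and culture in DMEM with 5% serum. The vector carried shUGDH-1, shUGDH-2 or shNT, a non-targeting hairpin, so the controls also carried a vector and a hairpin, and each group had 3 libraries that the labels call biological replicates. UGDH makes UDP-glucuronate, the sugar donor for glucuronidation. The libraries held 9249738 to 13328002 counts, the lowest in shUGDH-1 replicate 3, and levels below are in CPM, counts as a share of the library's total after scaling for depth and composition. Between 2 libraries of a group the variance was 1.2 to 1.91 times that of counting alone. The SEs, intervals and p-values below rest on this spread between libraries. Whether it covers differences between separate transductions was not tested.

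UGDH itself averaged 7.65 ± 0.367 CPM with shUGDH-1, 7.17 ± 0.802 CPM with shUGDH-2 and 53.0 ± 2.67 CPM with shNT (SD, n = 3 each), which is 14.4% and 13.5% of the shNT level. All 7 markers listed as present in the line were found above 1 CPM, among them VIM, CD44 and AXL. Of 7 luminal genes listed as low or absent, PGR was at 0 and ESR1 averaged 0.0121 CPM, whereas EPCAM averaged 9.38, GATA3 41.2 and ERBB2 124 CPM. The summed level of that luminal list was 176 to 181 CPM with shUGDH-1, 176 to 187 CPM with shUGDH-2 and 157 to 167 CPM with shNT, and its part in the results below was not tested. Of 7 fibroblast and endothelial markers, DCN and LUM were at 0, PDGFRB averaged 21.0 CPM and made up nearly all of the sum, and the summed list was 19.8 to 21.8, 21.1 to 23.0 and 18.8 to 21.0 CPM in the same order of groups.

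AHR is a ligand-activated transcription factor of the bHLH-PAS family that waits in the cytosol with chaperones such as HSP90 and p23 (PTGES3). After binding a ligand it moves to the nucleus, pairs with ARNT and binds DNA at elements with the core GCGTG, which raises transcription of CYP1A1, CYP1B1, TIPARP and AHRR. AHRR and TIPARP in turn repress the receptor, and the CYP1 enzymes oxidise many of its ligands. Kynurenine, a breakdown product of tryptophan, is an AHR ligand made inside the body, and kynureninase, the product of KYNU, consumes it.

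The core was looked up in the reference promoters of the 8 genes because it is the element through which the receptor acts. RefSeq promoters (GRCh38.p14, 250 bases before to 50 bases from the start) matched 6 of the 8 genes and gave 9 start sites for them. The element searched was GCGTG on either strand, and 5 of those 9 windows held it. Of all promoters of this length 36.5% held it, and 48.6% of the promoters of tested genes did. The windows below are those of CYP1A1 (chr15:74725479-74725778, minus strand), TIPARP at its most upstream listed start (chr3:156674340-156674639, plus strand), AHRR at its first listed start (chr5:321464-321763, plus strand), AHR (chr7:17298402-17298701, plus strand) and KYNU (chr2:142877414-142877713, plus strand). Each is written 5′ to 3′ on the gene's strand, with capitals marking the core or its reverse complement.
CYP1A1: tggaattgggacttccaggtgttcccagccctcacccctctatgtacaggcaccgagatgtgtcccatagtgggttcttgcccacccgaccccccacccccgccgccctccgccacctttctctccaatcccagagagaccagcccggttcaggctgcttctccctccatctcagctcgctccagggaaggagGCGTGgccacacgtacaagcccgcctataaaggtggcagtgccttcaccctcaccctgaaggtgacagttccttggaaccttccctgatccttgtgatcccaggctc
TIPARP: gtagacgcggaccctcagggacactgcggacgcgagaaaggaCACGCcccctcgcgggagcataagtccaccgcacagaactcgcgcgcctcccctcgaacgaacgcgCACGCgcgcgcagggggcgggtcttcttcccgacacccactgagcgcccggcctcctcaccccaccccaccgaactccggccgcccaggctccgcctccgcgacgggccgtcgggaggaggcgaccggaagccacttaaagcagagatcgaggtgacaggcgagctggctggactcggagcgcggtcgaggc
AHRR: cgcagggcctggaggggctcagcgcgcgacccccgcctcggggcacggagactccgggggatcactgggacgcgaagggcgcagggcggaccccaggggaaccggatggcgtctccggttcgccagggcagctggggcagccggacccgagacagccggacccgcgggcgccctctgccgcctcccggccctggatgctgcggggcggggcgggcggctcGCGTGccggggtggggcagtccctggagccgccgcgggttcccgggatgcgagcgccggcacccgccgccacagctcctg
AHR: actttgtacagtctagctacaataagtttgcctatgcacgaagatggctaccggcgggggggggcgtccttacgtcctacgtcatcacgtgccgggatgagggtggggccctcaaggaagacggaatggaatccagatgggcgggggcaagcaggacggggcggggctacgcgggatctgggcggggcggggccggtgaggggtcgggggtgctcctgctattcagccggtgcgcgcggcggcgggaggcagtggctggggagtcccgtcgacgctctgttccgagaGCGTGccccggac
KYNU: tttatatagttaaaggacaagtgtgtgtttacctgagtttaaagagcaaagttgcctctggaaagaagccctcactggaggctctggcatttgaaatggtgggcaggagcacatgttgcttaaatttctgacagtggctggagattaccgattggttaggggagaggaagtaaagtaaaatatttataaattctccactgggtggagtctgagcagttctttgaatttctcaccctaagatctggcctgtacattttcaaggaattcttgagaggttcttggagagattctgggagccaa

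In the CYP1A1 window the core began at position -57 from the start. The TIPARP window held it on the minus strand at -208 and -142, the AHRR window at -30, and the AHR window downstream of the start at position 38. A second AHRR start (chr5:322360-322659) held it at -247 and -42, whereas the KYNU window, the ARNT window and the 2 other TIPARP starts did not hold these letters. A match is a stretch of letters, not a binding site, and binding was not measured in these libraries.

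The receptor and its partner did not pass the threshold with either hairpin. AHR had 141, 134 and 135 CPM with shUGDH-1, 153, 152 and 157 CPM with shUGDH-2, and 140, 151 and 143 CPM with shNT. The shUGDH-2 libraries were all above those of the other groups, and the shUGDH-1 and shNT libraries overlapped. Against shNT the log2 fold change of AHR was -0.08 with shUGDH-1 (SE 0.035, 95% interval -0.15 to -0.01) and 0.09 with shUGDH-2 (SE 0.034, 0.02 to 0.16). Neither passed the threshold of an adjusted p of 0.05 over all genes tested (edgeR quasi-likelihood test, Benjamini-Hochberg), but the shUGDH-1 value did without shNT replicate 1 (-0.11) and the shUGDH-2 value without shNT replicate 2 (0.13). In GENCODE, 2373 exonic bases of AHR (31.0%) are shared on the same strand with the coding gene AC019117.2, which was not analysed here. In bulk RNA, fewer cells that express a gene and less of its RNA per cell cannot be told apart.

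ARNT, the nuclear partner that AHR shares with the hypoxia-inducible factors, had 46.0, 48.2 and 46.1 CPM with shUGDH-1, 46.1, 42.8 and 47.4 CPM with shUGDH-2, and 41.9, 47.0 and 47.4 CPM with shNT. The 3 groups overlapped. The 95% intervals of its log2 fold change against shNT were -0.07 to 0.16 for shUGDH-1 and -0.12 to 0.12 for shUGDH-2.

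Of the repressors, TIPARP was lower with both hairpins. TIPARP encodes a mono-ADP-ribosyltransferase that modifies AHR and lowers its activity. It had 129, 123 and 124 CPM with shUGDH-1, 131, 133 and 130 CPM with shUGDH-2, and 155, 144 and 147 CPM with shNT. Every library with a UGDH hairpin was below every shNT library. The log2 fold changes were -0.24 (SE 0.036, 95% interval -0.31 to -0.17) and -0.18 (SE 0.035, -0.25 to -0.11), so TIPARP stood at 84.5% of shNT with shUGDH-1 and at 88.5% with shUGDH-2. Both differences passed the threshold.

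AHRR, which competes with AHR for ARNT and for the same DNA element, was expressed at a low level. It had 32, 20 and 18 counts with shUGDH-1, 19, 27 and 21 counts with shUGDH-2, and 26, 35 and 30 with shNT, or 1.97 ± 0.480, 1.79 ± 0.253 and 2.51 ± 0.491 CPM (SD, n = 3). The lowest shNT library lay inside the range of both hairpins. Its log2 fold changes of -0.34 (95% interval -0.83 to 0.16) and -0.47 (-0.97 to 0.03) did not pass. These intervals hold both no change and falls larger than that of TIPARP, so the depth could not place AHRR. In GENCODE, 45 exonic bases of AHRR are shared with PDCD6 on the same strand, and PDCD6 was near 60 CPM in each group (61.7, 59.7 and 60.8 CPM).

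Both CYP1 enzymes were lower with both hairpins. CYP1A1, the monooxygenase that oxidises polycyclic aromatic hydrocarbons and a widely used readout of AHR activity, had 10.6, 13.8 and 11.3 CPM with shUGDH-1, 11.6, 11.2 and 13.0 CPM with shUGDH-2, and 18.1, 18.7 and 17.0 CPM with shNT. No library with a UGDH hairpin reached the lowest shNT library. These values rest on 104 to 183 counts per library with a UGDH hairpin and on 200 to 236 counts with shNT. The log2 fold change was -0.59 with each hairpin (SE 0.10, 95% interval -0.79 to -0.39), which put CYP1A1 at 66.2% of shNT with shUGDH-1 and at 66.5% with shUGDH-2. Its near relative CYP1A2 had 7 counts over the 9 libraries and at most 2 in any library, too few for a comparison.

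CYP1B1, the extrahepatic member of the family, which hydroxylates oestradiol and polycyclic hydrocarbons, was more deeply counted and its replicates lay closer together. It had 106, 106 and 101 CPM with shUGDH-1, 122, 117 and 121 CPM with shUGDH-2, and 164, 159 and 161 CPM with shNT. The 3 groups formed separate ranges in the order shUGDH-1, shUGDH-2, shNT from low to high. The log2 fold changes were -0.63 (SE 0.035, 95% interval -0.70 to -0.56) and -0.43 (SE 0.034, -0.50 to -0.36), or 64.6% and 74.2% of shNT. The antisense gene CYP1B1-AS1 overlaps 10.9% of the exonic bases of CYP1B1 and had 1 to 6 counts per library, against 935 to 2137 for CYP1B1. Whether the counting used strand is not given in the sources used here.

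ALDH3A1, an aldehyde dehydrogenase of the classical AHR gene battery, was barely detected. It had 6, 11 and 6 counts with shUGDH-1, 8, 5 and 5 counts with shUGDH-2, and 7, 12 and 12 with shNT. The groups overlapped, and the 95% intervals of the log2 fold change, -1.22 to 0.45 and -1.69 to 0.09, were too wide to place it. A difference was not detectable at this depth.

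KYNU passed the threshold in opposite directions with the 2 hairpins; AHR also had opposite signs, with neither value past it. It had 2.62, 1.96 and 3.80 CPM with shUGDH-1, 6.06, 8.16 and 6.79 CPM with shUGDH-2, and 5.07, 5.61 and 4.77 CPM with shNT. The shUGDH-1 libraries were all below shNT and the shUGDH-2 libraries all above it. Behind these levels stand 34, 26 and 35 counts with shUGDH-1, 72, 106 and 84 counts with shUGDH-2, and 66, 66 and 56 with shNT. The log2 fold change was -0.94 with shUGDH-1 (SE 0.20, 95% interval -1.33 to -0.55) and 0.45 with shUGDH-2 (SE 0.16, 0.14 to 0.76), or 54.2% and 136% of shNT.

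The higher KYNU level with shUGDH-2 was close to the threshold. It no longer passed without shNT replicate 1 (0.44), shNT replicate 3 (0.40), shUGDH-2 replicate 2 (0.32) or shUGDH-2 replicate 3 (0.48), nor with DESeq2 (0.45). In the authors' deposited table, KYNU had a log2 fold change of -0.74 with shUGDH-1 and of 0.39 with shUGDH-2, and the second did not pass there at 0.05. The lower level with shUGDH-1 passed in each of the 14 alternative settings run, between -1.17 and -0.72. KYNU is also made by macrophages. Among the 8 leukocyte markers, CD3E and HBB were at 0 and PTPRC, LYZ and ITGAM averaged 0.0435, 0.0699 and 0.146 CPM, and CD14 averaged 2.34 CPM with shUGDH-1, 1.82 CPM with shUGDH-2 and 1.54 CPM with shNT, while CD68, also present in many tumour lines, averaged 89.9 CPM. The summed leukocyte list was 85.0 to 91.5 CPM with shUGDH-1, 87.1 to 93.7 CPM with shUGDH-2 and 93.5 to 101 CPM with shNT. CD68 made up nearly all of that sum, at 85.5, 88.2 and 96 CPM in the same order, whereas CD14 ran the other way.

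**Figure D1:**
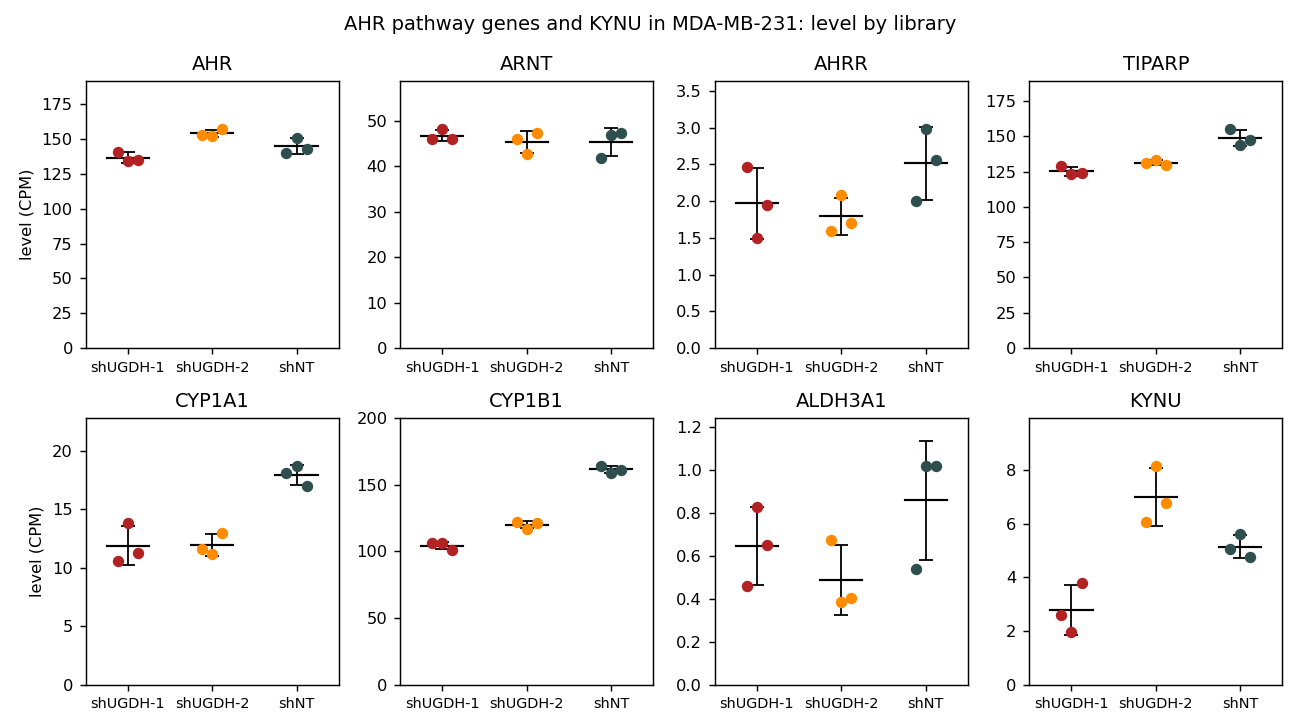
Level of each of the 8 genes in CPM (vertical axes from 0, each with its own scale) in the 3 libraries of shUGDH-1, shUGDH-2 and shNT. Points are libraries, long bars are means and short bars are 1 SD. CYP1A1, CYP1B1 and TIPARP lie below shNT with both hairpins, while KYNU lies below shNT with shUGDH-1 and above it with shUGDH-2.

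With shUGDH-1, 4 of the 8 genes passed as lower (KYNU, CYP1B1, CYP1A1 and TIPARP) and the other 4 did not pass, where 10.3% of all tested genes passed as lower and 10.5% as higher. With shUGDH-2, 3 passed as lower (CYP1A1, CYP1B1 and TIPARP) and 1 as higher (KYNU), where 6.81% of all tested genes passed as lower and 8.04% as higher. CYP1A1, CYP1B1 and TIPARP were lower with both hairpins, as were 3.61% of tested genes, while 4.72% of tested genes were higher with both. KYNU was lower with shUGDH-1 and higher with shUGDH-2, as were 33 of the 12546 tested genes, or 0.263%. Because several of the 8 were picked on these values, the counts describe the choice and nothing is read from them. Both comparisons use the same 3 shNT libraries.

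The median log2 fold change of the 8 genes was -0.36 with shUGDH-1 and -0.30 with shUGDH-2, against -0.0026 and -0.0059 over all tested genes. Several of the 8 were picked for low values, so these medians describe the choice and not the pathway. With shUGDH-1 the median lies between ALDH3A1 (-0.39) and AHRR (-0.34), neither of which passed and both limited by depth. The authors' deposited tables, which start from the same libraries, gave log2 fold changes with shUGDH-1 and shUGDH-2 of -0.55 and -0.56 for CYP1A1, -0.63 and -0.43 for CYP1B1, and -0.24 and -0.17 for TIPARP.

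**Figure D2:**
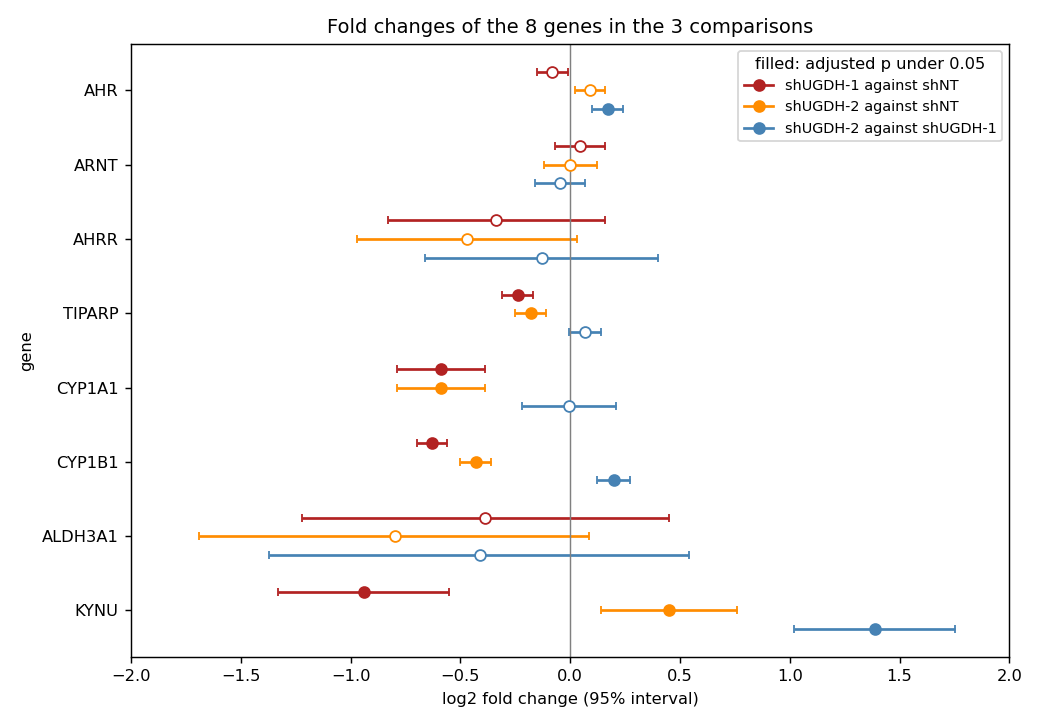
Log2 fold change (horizontal axis) of the 8 genes in 3 comparisons, with 95% intervals. Filled points passed an adjusted p of 0.05 over all tested genes. In all 3 comparisons this is a description, as the genes were chosen with measured values known. The intervals of AHRR and ALDH3A1 are the widest, and KYNU lies at -0.94 with shUGDH-1 and at 0.45 with shUGDH-2.

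The 2 UGDH hairpins were then compared with each other, a comparison on which only KYNU had in effect been selected, although it shares its libraries with those above. Of all tested genes, 5.36% passed as higher with shUGDH-2 than with shUGDH-1 and 5.51% as lower. AHR was higher with shUGDH-2, at 154 ± 2.88 CPM against 137 ± 3.68 CPM with shUGDH-1 (SD, n = 3 each), a log2 fold change of 0.17 (SE 0.035; edgeR quasi-likelihood test, Benjamini-Hochberg adjusted p = 0.00019). CYP1B1 was higher as well, at 120 ± 2.29 CPM against 104 ± 2.41 CPM, a log2 fold change of 0.20 (SE 0.037; edgeR adjusted p = 6.1e-05). For both genes each of the 3 shUGDH-2 libraries was above each of the 3 shUGDH-1 libraries.

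CYP1A1 gave no such difference between the hairpins. It averaged 11.9 ± 0.960 CPM with shUGDH-2 and 11.9 ± 1.66 CPM with shUGDH-1, and the 95% interval of the log2 fold change ran from -0.22 to 0.21 (edgeR adjusted p = 0.99). That interval includes the value of CYP1B1, so the 2 CYP1 genes are not shown to differ in it. TIPARP was at 131 ± 1.38 CPM with shUGDH-2 and 125 ± 3.54 CPM with shUGDH-1, without overlap between the groups but also without passing (log2 0.07, 95% interval -0.01 to 0.14; edgeR adjusted p = 0.27).

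ARNT, AHRR and ALDH3A1 did not pass between the hairpins either, with edgeR adjusted p = 0.70, 0.83 and 0.67. Their 95% intervals were -0.16 to 0.07 for ARNT, -0.66 to 0.40 for AHRR and -1.37 to 0.54 for ALDH3A1. KYNU averaged 7.01 ± 1.07 CPM with shUGDH-2 and 2.79 ± 0.933 CPM with shUGDH-1, a 2.61-fold difference (log2 1.39, SE 0.18, 95% interval 1.02 to 1.75). By size it was the 5th highest log2 fold change of all tested genes in this comparison, which is given as a description.

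Levels were set between genes only per length, as CPM per kilobase of the median coding transcript. On that scale CYP1B1 stood at 48.0 with shUGDH-1, 55.2 with shUGDH-2 and 74.2 with shNT, and TIPARP at 32.2, 33.7 and 38.2. AHR had 20.7, 23.3 and 21.9, and ARNT 14.5, 14.1 and 14.1. CYP1A1 had 4.95, 4.97 and 7.47 CPM per kilobase. AHRR stood at 0.907, 0.825 and 1.16 and ALDH3A1 at 0.365, 0.275 and 0.485. Coding transcripts run from 1479 to 5250 bases for CYP1B1, from 2150 to 4181 for TIPARP and from 776 to 15316 for KYNU, and the transcripts used here are not known. The order of CYP1B1, TIPARP and AHR therefore depends on the length assumed, and no level per length is given for KYNU.

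Genes around the receptor that are not among the 8 moved in both directions. Over 9 lists of the pathway and related families, 104 other genes were tested, and 17 passed as higher and 16 as lower with shUGDH-1, against 14 and 9 with shUGDH-2. Over all tested genes the shares were 10.5% higher and 10.3% lower with shUGDH-1, and 8.04% higher and 6.81% lower with shUGDH-2, and the counts of each list below stand beside these same shares. Their median log2 fold changes were 0.0026 and 0.00013, beside -0.0026 and -0.0059 over all tested genes. The genes of each list named here are those that passed with at least 1 hairpin, first those that did so in the same direction with both. The lists were chosen with earlier results of these data known. The adjusted p-values given for these genes against shNT are therefore descriptions and not independent tests. With DESeq2 several of these calls were lost: those of AADAT (-0.56), ALDH1L1 (0.49), ALDH18A1 (-0.10), EPAS1 (0.11) and MAOA (-0.36) with shUGDH-1, and those of ALAD (0.17), ALDH3B1 (0.19), CLOCK (-0.14), EPAS1 (0.14), NADSYN1 (0.19) and POR (0.14) with shUGDH-2. With only the groups compared, EPAS1 with shUGDH-1 (0.11) and ALAD with shUGDH-2 (0.17) did not pass.

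Of 13 chaperones, partners and coactivators of AHR, 2 were higher and 4 lower with shUGDH-1, and 1 was higher and 3 lower with shUGDH-2. The 3 that were lower with both belong to the cytosolic complex that holds the unliganded receptor. HSP90AB1 had a log2 fold change of -0.10 with each hairpin, HSP90AA1 of -0.05 and -0.14, and the cochaperone PTGES3 of -0.11 and -0.19 (edgeR adjusted p from 1.9e-09 to 0.024). The HSP90AA1 call with shUGDH-1 was lost without any of the shUGDH-1 libraries or shNT replicate 1 or 3 (-0.053 to -0.039), and that of PTGES3 without shNT replicate 1 (-0.062). ARNT2, a close relative of ARNT, was the gene higher with both, at 82.6 ± 2.28 CPM with shUGDH-1, 86.1 ± 1.00 CPM with shUGDH-2 and 67.9 ± 0.971 CPM with shNT (log2 0.28 and 0.34; edgeR adjusted p = 1.5e-06 and 1.2e-08). The corepressor NRIP1 was higher with shUGDH-1 (log2 0.45, edgeR adjusted p = 4e-05), and with shUGDH-2 it had 0.24 (adjusted p = 0.051), which passed without shNT replicate 3 (0.33) or shUGDH-1 replicate 1 (0.24).

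Among 8 other bHLH-PAS genes, CLOCK of the circadian clock was lower with both hairpins (log2 -0.27 and -0.15, edgeR adjusted p = 1.3e-06 and 0.011). EPAS1, the hypoxia factor that also pairs with ARNT, was higher with both (0.11 and 0.14, edgeR adjusted p = 0.046 and 0.0098). CLOCK did not pass with shUGDH-2 without shNT replicate 1 (-0.087) or shUGDH-2 replicate 1 (-0.11). The EPAS1 call with shUGDH-1 was lost without shNT replicate 1 or 2 or any shUGDH-1 library (0.091 to 0.12).

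Of 28 other genes reported as AHR targets 17 were tested, with 4 higher and 5 lower with shUGDH-1 and 6 higher and 2 lower with shUGDH-2. NQO1, a quinone reductase of the same battery that NRF2 also drives, was lower with both: 292 ± 4.55 CPM with shUGDH-1, 284 ± 7.59 CPM with shUGDH-2 and 339 ± 2.35 CPM with shNT (log2 -0.21 and -0.25, edgeR adjusted p = 7.9e-10 and 5.1e-12). FLG, which encodes the epidermal protein filaggrin, was lower as well (-0.34 and -0.28, edgeR adjusted p = 3e-05 and 0.00073). NEDD9, a scaffold protein of cell adhesion and migration, was higher at 73.7 ± 4.74, 68.8 ± 6.16 and 50.8 ± 1.64 CPM (log2 0.53 and 0.44, edgeR adjusted p = 2.9e-11 and 1.4e-08). The cytokines IL1B (0.34 and 0.53) and LIF (0.12 and 0.19) were higher with both hairpins (edgeR adjusted p from 1e-06 to 0.0066), though LIF did not pass with shUGDH-1 without shNT replicate 3 (0.094). UGT1A1, UGT1A6, GSTA1 and GSTA2, detoxification genes of the battery, had 0 counts in every library. By counting error alone this allows up to 0.225 to 0.324 CPM per library (3 counts). How reads shared between overlapping or near-identical genes were counted is not known, so the true levels may be higher.

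EREG and IL6 of that list, chosen here after their values were seen, differed from shNT in opposite directions as KYNU did. EREG, which encodes the EGFR ligand epiregulin, had 76.8, 77.4 and 71.4 CPM with shUGDH-1, 131, 131 and 126 CPM with shUGDH-2, and 118, 112 and 110 CPM with shNT. The 3 ranges did not overlap, and shNT lay between the hairpins. IL6, an inflammatory cytokine, averaged 314 ± 5.38 CPM with shUGDH-1, 392 ± 17.3 CPM with shUGDH-2 and 362 ± 14.5 CPM with shNT. Between the hairpins, the log2 fold change was 0.77 for EREG and 0.32 for IL6, given as descriptions because both were picked for this pattern.

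The kynurenine pathway around KYNU was in part silent in these cells. Of its 14 other genes, 6 passed the filter. The 4 of them that did not pass the threshold with shUGDH-1 were well expressed, at 17.6 to 169 CPM with shNT. IDO1 and KMO, the enzymes that start the pathway and hydroxylate kynurenine, had 1 count each over the 9 libraries, IDO2 had 0, and TDO2 had 19. Of the 6 tested genes, AADAT, an aminotransferase that turns kynurenine into kynurenic acid, was lower with shUGDH-1 (log2 -0.57, edgeR adjusted p = 0.0044) and had -0.21 with shUGDH-2 (adjusted p = 0.37). AADAT did not pass with shUGDH-1 without shUGDH-1 replicate 2 (-0.46). NADSYN1, the last step of NAD synthesis, was higher with both (0.32 and 0.19, edgeR adjusted p = 2.2e-05 and 0.019), but not with shUGDH-2 without shNT replicate 1 or 3 or shUGDH-2 replicate 1 or 2 (0.17 to 0.19).

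Of 8 tested genes for tryptophan and kynurenine transport and use, 1 was higher and 2 lower with shUGDH-1, and 2 were lower with shUGDH-2. SLC7A11, the cystine and glutamate exchanger, was lower with both, at 66.7 ± 1.09 CPM with shUGDH-1, 85.9 ± 3.27 CPM with shUGDH-2 and 113 ± 7.68 CPM with shNT (log2 -0.77 and -0.40, edgeR adjusted p = 1.3e-21 and 5.9e-11). SLC7A5, the large neutral amino acid transporter that carries tryptophan and kynurenine, was higher with shUGDH-1 (0.12, edgeR adjusted p = 6.5e-08) and had 0.03 with shUGDH-2 (adjusted p = 0.30). Its heavy chain SLC3A2 had -0.06 with shUGDH-1 (adjusted p = 0.099) and was lower with shUGDH-2 (-0.12, edgeR adjusted p = 3e-04). MAOA, an amine oxidase, was lower with shUGDH-1 (-0.35, edgeR adjusted p = 0.038), a call lost without shNT replicate 2 or 3 or shUGDH-1 replicate 1 or 3 (-0.32 to -0.30).

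CYP1 enzymes need electrons from POR and heme, and 19 such supply genes were tested. With shUGDH-1, 5 were higher and 1 lower, and with shUGDH-2, 3 were higher and 1 lower. CPOX, which encodes an enzyme of heme synthesis, was lower with both, at 115 ± 3.12 CPM with shUGDH-1, 90.3 ± 3.81 CPM with shUGDH-2 and 134 ± 5.18 CPM with shNT (log2 -0.23 and -0.57, edgeR adjusted p = 3.1e-06 and 2.2e-18). The reductases CYB5R3 (0.18 and 0.16) and POR (0.18 and 0.14) were higher with both (edgeR adjusted p from 1.1e-07 to 0.031). The POR call with shUGDH-2 was lost without shNT replicate 1 or 3 or any shUGDH-2 library (0.13 to 0.14). ALAD, an earlier enzyme of heme synthesis, passed as higher with shUGDH-2 alone (0.17, edgeR adjusted p = 0.047), a call lost without shNT replicate 1 or 2, shUGDH-1 replicate 3 or shUGDH-2 replicate 1 or 3 (0.13 to 0.17).

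Of 53 other cytochrome P450 genes, 10 were tested, and CYP51A1 of cholesterol synthesis was higher with both hairpins (0.26 and 0.16, edgeR adjusted p = 5e-06 and 0.0052). The other 9 did not pass, with log2 fold changes from -0.32 to 0.16 with shUGDH-1 and from -0.09 to 0.20 with shUGDH-2. Among 13 other aldehyde dehydrogenases, ALDH3B1 was higher with both (0.29 and 0.19, edgeR adjusted p = 0.00019 and 0.025), the second lost without shNT replicate 3 or shUGDH-2 replicate 1 or 2 (0.14 to 0.19). ALDH3A2, a fatty aldehyde dehydrogenase related to ALDH3A1, was lower with shUGDH-1 (-0.27, edgeR adjusted p = 4.7e-05) and had -0.07 with shUGDH-2 (adjusted p = 0.40). ALDH1L1 of folate metabolism (0.50, lost without shNT replicate 2 or 3 or shUGDH-1 replicate 1 or 2, at 0.40 to 0.51) was higher and ALDH18A1 of proline synthesis (-0.10, lost without shNT replicate 1 or shUGDH-1 replicate 1 or 3, at -0.091 to -0.07) lower with shUGDH-1 (edgeR adjusted p = 0.031 and 0.027). Among 12 other members of the PARP family to which TIPARP belongs, PARP4 alone passed against shNT, higher with shUGDH-1 (0.10, edgeR adjusted p = 0.006), a call lost without shUGDH-1 replicate 3 (0.076).

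**Figure D3:**
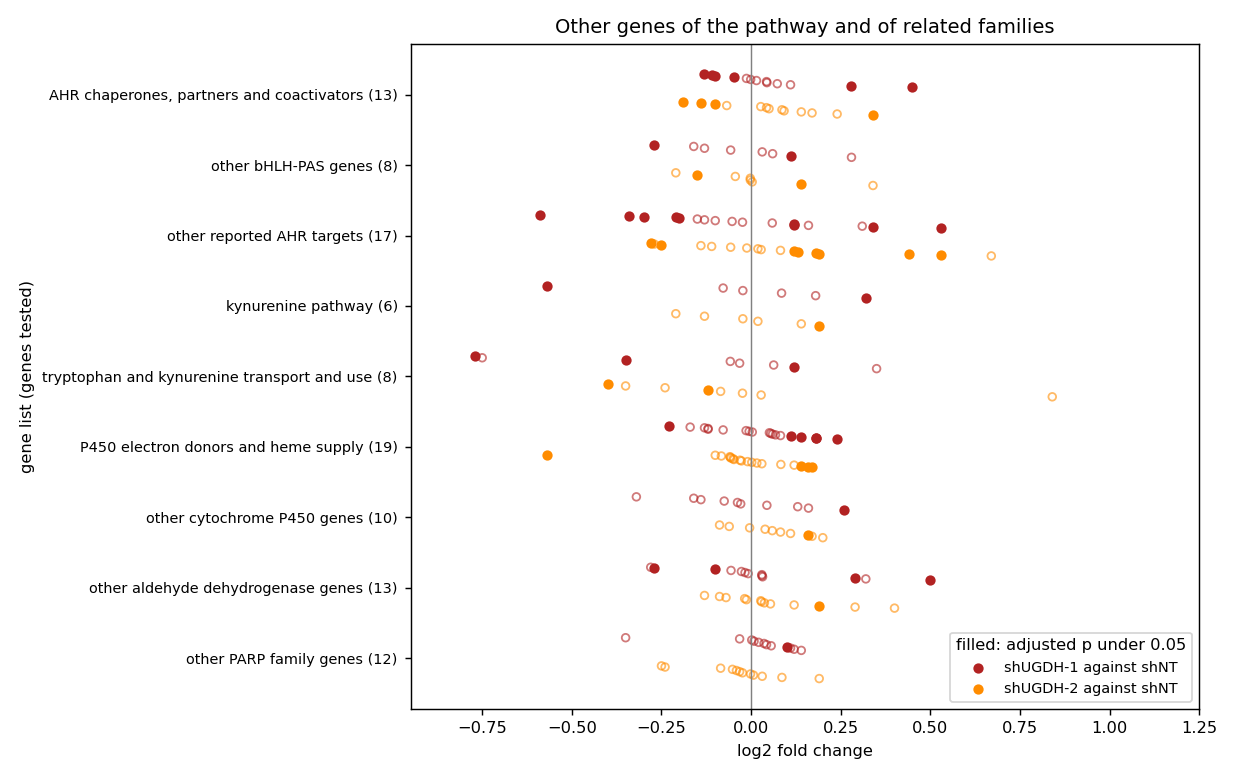
Log2 fold change against shNT (horizontal axis) of the tested genes of 9 other lists, shUGDH-1 above shUGDH-2 within each list. Each point is a gene and filled points passed an adjusted p of 0.05. Filled points lie on both sides of 0 in most lists, and the P450 list has 1 filled point with each hairpin, CYP51A1 on the higher side.

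Genes with the pattern most like CYP1A1, CYP1B1 and KYNU were found as those with the smallest root mean square difference of log2(CPM + 1) over the 9 libraries, each gene centred on its mean, among genes of at least 5 CPM. For CYP1A1 these were HTRA3, a secreted serine protease, ZNF844, a zinc finger gene, and CYP1B1 itself, with differences of 0.0852, 0.112 and 0.127 against a median of 0.291 over the 10366 genes compared. HTRA3 averaged 5.61 CPM with shUGDH-1, 5.42 CPM with shUGDH-2 and 7.79 CPM with shNT. For CYP1B1 they were SLC7A11, G0S2, an inhibitor of fat breakdown, and C4orf27, with differences of 0.0881, 0.0945 and 0.0957 against a median of 0.271. G0S2 averaged 164, 181 and 279 CPM in the same order of groups.

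For KYNU the nearest patterns were those of 3 genes for the MHC class II molecules that present antigen, HLA-DRB1, HLA-DRA and HLA-DPA1, with differences of 0.149, 0.170 and 0.188 against a median of 0.501. HLA-DRB1 averaged 19.6 CPM with shUGDH-1, 40.6 CPM with shUGDH-2 and 30.8 CPM with shNT, and HLA-DRA 29.1, 57.1 and 45.7 CPM. HLA-DPA1 averaged 16.3, 32.4 and 27.8 CPM. All 3 were, as KYNU was, lowest with shUGDH-1 and highest with shUGDH-2, without overlap between any groups. They were picked for their likeness to KYNU over the same libraries, so this shared order is a description. HLA-DRB1 has near-identical relatives between which reads can be split, so its level is uncertain.

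**Figure D4:**
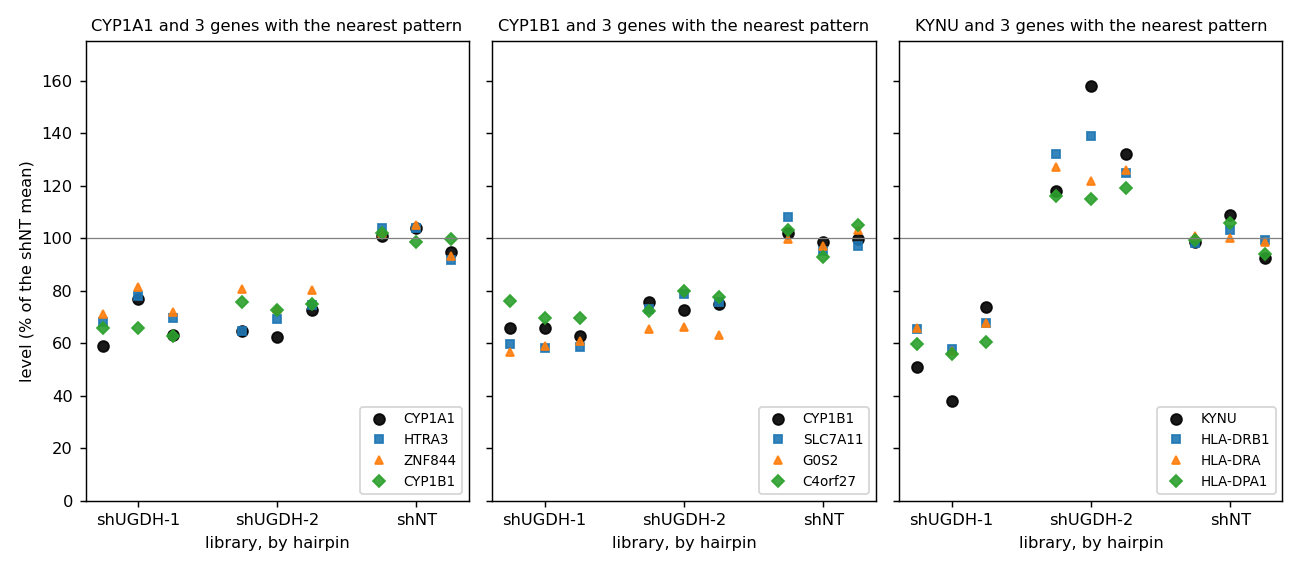
Level of CYP1A1, CYP1B1 and KYNU and of the 3 genes with the nearest pattern to each, as a percentage of the gene's shNT mean (vertical axis), in each library by hairpin. KYNU stands at 38.1% to 73.8% with shUGDH-1 and at 118% to 158% with shUGDH-2, and the 3 HLA genes follow with a narrower range.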

How the data were processed

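Gene counts from 9 libraries (3 each of shUGDH-1, shUGDH-2 and shNT) were used, assigned by the column names and labels. The counts are raw counts per gene as deposited by the authors. Per the submitters' processing notes, STAR, DESeq and DESeq2 were used with the hg19 build. Their annotation and strand setting are unstated there. The authors also deposited tables of base means (a normalised signal), log2 fold changes and p-values for each hairpin against shNT. Here counts were filtered (filterByExpr), scaled by TMM and tested with edgeR 4.0.16 (robust quasi-likelihood, 9 libraries, 6 residual degrees of freedom, Benjamini-Hochberg over 12546 genes, threshold 0.05), a procedure tested on simulated data. The filter kept 99.93% of counts. Symbols turned into dates (28 rows) held 0.232% of counts. Intervals on CPM limits cover counting error only. The 8 genes and all lists were chosen with earlier results of these data known. Named genes of other lists passed with at least 1 hairpin at a mean of at least 1 CPM, at most 5 per list, those called the same way with both first, then by size of change. Alternatives were RLE size factors, no filter, DESeq2 1.42.0, only the groups compared, a replicate block and leaving out each library. Some genes of the lists are not reported here by name.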

Additional observations from a re-analysis of the deposited data

Results flagged for a closer look

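For 3 of the 8 genes the 2 UGDH hairpins differed from each other when compared directly (edgeR quasi-likelihood test, shUGDH-2 against shUGDH-1). The log2 fold change was 0.17 for AHR, 0.20 for CYP1B1 and 1.39 for KYNU. CYP1B1 and KYNU had been picked on their levels in these libraries, and AHR was chosen with measured values known. The 3 values are therefore descriptions. All 3 genes kept this difference in each of the 14 alternatives. Among the other named genes the same comparison passed for SLC7A11 at 0.37, ALDH3A2 at 0.20, CLOCK at 0.13 and ALDH18A1 at 0.12, all higher with shUGDH-2. It passed for CPOX at -0.34, PARP4 at -0.094, SLC7A5 at -0.094 and HSP90AA1 at -0.088, all lower with shUGDH-2. These genes were named because they had passed against shNT with at least 1 hairpin, in comparisons that share libraries with this one. Their values here are therefore descriptions as well. Over all tested genes 5.36% passed as higher with shUGDH-2 and 5.51% as lower. EREG (0.77) and IL6 (0.32) were higher with shUGDH-2 too, but had been picked for lying on opposite sides of shNT, so their values are descriptions. With DESeq2 the calls for CLOCK (0.13) and PARP4 (-0.093) were lost. The calls for CLOCK, PARP4 and ALDH18A1 were lost when single libraries of the compared hairpins were left out, at 0.11 to 0.14 for CLOCK, -0.089 to -0.067 for PARP4 and 0.11 for ALDH18A1.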

How the results depend on the processing

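CYP1A1, CYP1B1 and TIPARP stayed below shNT and past the threshold with both hairpins in each of the 14 alternatives. The genes were chosen with measured values known, and the alternatives reuse the same libraries. This therefore describes how steady the values were and is not a test. CYP1A1 ranged from -0.72 to -0.50 and from -0.65 to -0.54, CYP1B1 from -0.64 to -0.61 and from -0.44 to -0.41, and TIPARP from -0.27 to -0.21 and from -0.20 to -0.14, for shUGDH-1 and shUGDH-2 in turn. Members passed numbered 4 with shUGDH-1 (4 to 5 without single libraries), 4 with shUGDH-2 (3 to 5) and 3 between the hairpins. DESeq2 called fewer genes over the whole table: 1543 against 2605 with shUGDH-1, 928 against 1864 with shUGDH-2 and 756 against 1363 between the hairpins, and 24, 17 and 11 of the 104 other pathway genes in place of 33, 23 and 15. Replicate numbers did not pair the libraries (correlations of deviations from -0.083 to 0.137). With the replicate block 34, 23 and 14 of the other pathway genes passed, and KYNU with shUGDH-2 did not (0.44).

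Some values near 0 changed sign, none of them past the threshold on either side. Without single libraries, ARNT ranged from -0.012 to 0.079 with shUGDH-1 and from -0.057 to 0.044 with shUGDH-2, and PARP4 with shUGDH-2 from -0.01 to 0.028 (-3.6e-05 without shUGDH-2 replicate 1). Between the hairpins the same omissions gave -0.32 to 0.088 for AHRR, -0.093 to 0.13 for CYP1A1, -0.0064 to 0.0029 for HSP90AB1 and -0.11 to 0.019 for HTRA3. ARNT with shUGDH-2 was also 0.0016 with RLE size factors, 0.0028 without the filter, 0.00032 with DESeq2 and 0.0023 with only the groups compared, and CYP1A1 between the hairpins 0.0011 with DESeq2. The cause was not tested. Without single libraries, all genes passed numbered 1985 to 2599, 1252 to 1846 and 974 to 1627. AHRR and ALDH3A1, at 5 to 35 counts per library, are limited by depth.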
